A study of Homo sapiens with 38 samples.

Results

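The comparison described here set MS177 against its vehicle in T47D-TR, an established human breast cancer cell line, after 48 h of treatment. It used 4 of the 38 RNA-seq samples of a study of compounds directed at EZH2: 2 libraries of cells given 2.5 uM MS177 and 2 of cells given 0.125% DMSO. The members are the genes of these 4 libraries, taken by the labels of the samples and not by any measured value. Of 17191 genes listed, 14555 reached 10 normalized counts in 2 or more of the 4 libraries and were tested. All cells were cultured in RPMI1640 with fetal bovine serum and insulin, and the libraries were made from polyadenylated RNA. The labels name T47D-TR as its own line beside T47D and do not explain the letters TR. They do not say whether the 2 libraries of a group came from separate cultures, so the p-values measure the spread between these libraries, which may be technical. The same cells also received MS177-N1, MS177-N2 (both negative controls of MS177) or C24 (an EZH2 methyltransferase inhibitor) at the same dose and time, with 2 libraries each, and MS177 was compared with each of these.

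EZH2 is the enzyme of Polycomb repressive complex 2 (PRC2), which places methyl groups on lysine 27 of histone H3 and so keeps genes silent. MS177 is a degrader: an EZH2 inhibitor joined to a ligand of cereblon, the substrate receptor of a ubiquitin ligase, so that the bound protein is marked for the proteasome. In breast epithelium EZH2 is best known for its high level in dividing cells, where E2F factors drive its transcription.

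Levels are given as normalized counts, recovered from the deposited log2 values. Differences are log2 differences, MS177 minus DMSO, on the log2(normalized count + 1) scale with their standard error (SE, after ±) from limma, n = 2 libraries per group. A gene rose or fell where its Benjamini-Hochberg adjusted p, over all tested genes, was under 0.05. The sum of normalized counts lay between 12.8 M and 13.6 M per library, and the sequencing depth is unknown. The 2 DMSO libraries correlated at 0.978 over the tested genes and the 2 MS177 libraries at 0.976, while correlations between the groups ran from 0.853 to 0.864.

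More than 1 in 2 tested genes differed between the groups. Of the 14555 genes, 4023 were higher with MS177 (27.6%) and 3922 were lower (26.9%), together 54.6%. These shares are the background for the counts of all gene lists below. The median log2 difference over all tested genes was -0.0017. The values were read as counts already scaled between libraries, so a shift of all transcripts together could not be seen. At least 4-fold changes were seen in 822 genes that rose (5.65%) and 766 that fell (5.26%), and at least 8-fold changes in 394 (2.71%) and 226 (1.55%). The 822 genes had a median level of 7.47 with DMSO and 83.3 with MS177, and the 766 genes 245 and 33.6. Many of the 822 genes were thus below the filter's minimum with DMSO and passed it only through MS177 libraries. Folds from such low levels depend on the pseudocount, so the 2 directions are not on equal terms. The genes that rose 4-fold or more held 1.19% of the normalized counts with DMSO and 7.07% with MS177, while those that fell 4-fold or more held 4.63% and 0.696%. The number of higher genes was 2663 without MS177 replicate 1 and 2564 without MS177 replicate 2, settings in which 13895 and 13862 genes passed the filter on low values. In bulk RNA, fewer cells in a given phase and less RNA per cell cannot be told apart.

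**Figure D1:**
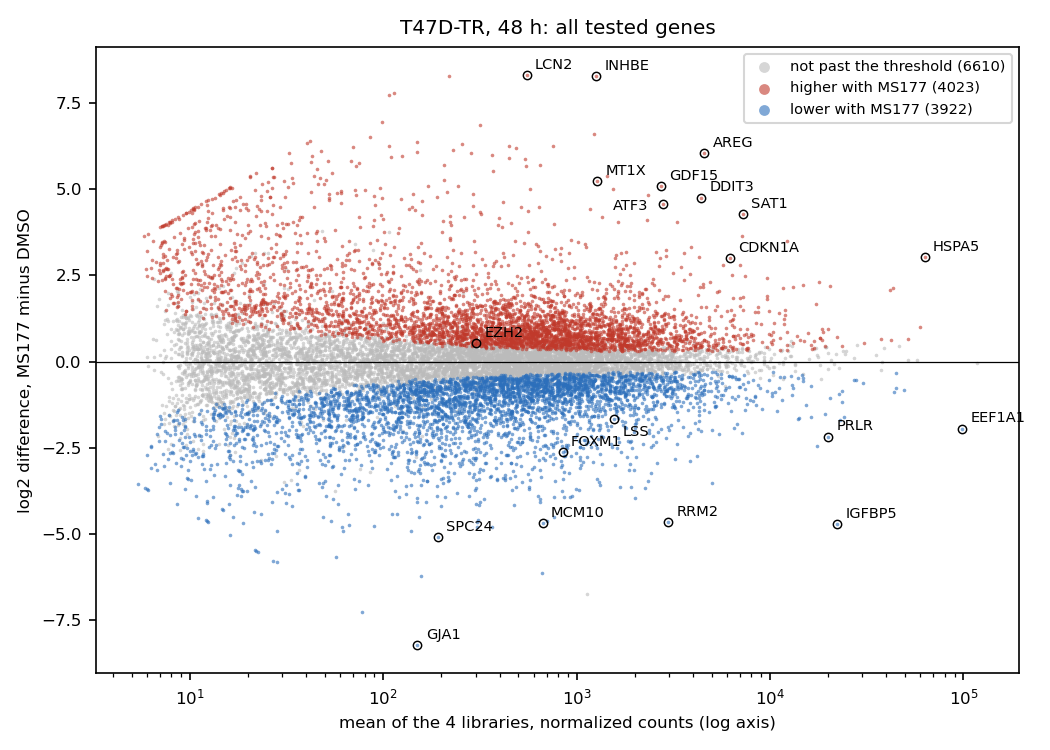
Each dot is a tested gene: the mean of its 4 libraries in normalized counts (x, log axis) against its log2 difference, MS177 minus DMSO (y), in red or blue where the gene rose (4023) or fell (3922) and grey otherwise (6610). Among the genes labelled in the plot INHBE and LCN2 lie highest, GJA1 lowest, and EEF1A1 furthest to the right, below 0. The straight edge at the upper left is made of genes listed at 0 in DMSO, whose difference depends on the pseudocount.

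The transcript of EZH2 itself (chr7:148807383-148884321, minus strand) was not lower with MS177. It stood at 239 and 255 with DMSO and 373 and 345 with MS177 (log2 difference 0.54 ± 0.15, adjusted p = 0.0213, a call lost in 3 of 14 alternative settings). Each MS177 library was above each DMSO library. These are transcript levels, and a degrader acts on the protein, which was not measured here. Its paralogue EZH1 (215 and 328 with DMSO and 294 and 266 with MS177) did not pass the test (log2 difference 0.07 ± 0.23, 95% interval -0.47 to 0.62, adjusted p = 0.8). The other core subunits fell. SUZ12, which holds the complex together, stood at 1835 and 1751 with DMSO and 1210.4 and 1198 with MS177 (log2 difference -0.57 ± 0.10, adjusted p = 0.00438). EED, which reads the methyl mark, had 90.1 and 106 with DMSO and 43.7 and 59.8 with MS177 (log2 difference -0.92 ± 0.26, adjusted p = 0.0249, a call lost in 3 of 12 alternative settings). Of the histone-binding subunits shared with other complexes, RBBP4 had 2957 and 2999 with DMSO and 1198 and 1151 with MS177 (log2 difference -1.34 ± 0.10, adjusted p = 1.62e-04) and RBBP7 had 2492 and 2416 with DMSO and 939.6 and 933 with MS177 (log2 difference -1.39 ± 0.10, adjusted p = 1.55e-04). In all, 4 of the 6 core subunits fell and 1 rose, set against 26.9% and 27.6% of all tested genes. Among accessory subunits, PHF1, a Tudor-domain protein that recruits PRC2, rose from 179.8 and 159 to 790.2 and 877 (log2 difference 2.29 ± 0.15, adjusted p = 9.33e-05), while PHF19 (-1.13 ± 0.17) and JARID2 (-0.90 ± 0.20) fell.

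Polycomb repressive complex 1, which reads the PRC2 mark and ubiquitinates histone H2A, had 7 of 19 tested subunits higher and 6 lower, next to 27.6% and 26.9% of all tested genes. Both catalytic subunits rose, RING1 from 303 and 288 to 712 and 719 (1.27 ± 0.13) and RNF2 from 229.9 and 205 to 565 and 485 (1.26 ± 0.16). RYBP (1.20 ± 0.11) and YAF2 (1.22 ± 0.15) also rose. Fewer counts were seen for the chromobox proteins CBX2 (-0.99 ± 0.13), CBX6 (-0.91 ± 0.14), CBX8 (-0.98 ± 0.17) and CBX7, which had 147 and 162 with DMSO and 23.2 and 35.4 with MS177 (-2.39 ± 0.28). Of 10 tested genes for DNA methylation and its readers 1 rose and 4 fell. Of the enzymes that methylate DNA, DNMT1 (-1.15 ± 0.24) and DNMT3B, at 86.7 and 122 with DMSO and 16.8 and 18.4 with MS177 (-2.49 ± 0.30), fell. DNMT3A fell too (-0.86, adjusted p = 0.018, a call lost in 3 of 14 alternative settings). UHRF1, which brings DNMT1 to replicated DNA, read 72.7 and 429 in the 2 DMSO libraries and 75.5 and 66.3 with MS177, so the groups overlapped and the test was not passed.

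PRC2 is best known for silencing developmental transcription factors. From a list of 61 such factors known as Polycomb-marked in many cell types, 33 were listed in these libraries, 27 could be tested, 5 rose and 9 fell, next to 27.6% and 26.9% of all tested genes, with a median of -0.31. The factors that rose included TBX2, from 61.1 and 81.2 to 379 and 341 (log2 difference 2.33 ± 0.21, adjusted p = 2.89e-04), TBX3, from 462 and 514 to 1119 and 995 (log2 difference 1.11 ± 0.13, adjusted p = 8.02e-04), and MSX1 (1.27 ± 0.26). The stem cell factor SOX2 fell (log2 difference -2.97 ± 0.39, adjusted p = 0.00119), and LHX2 (-2.61 ± 0.32), DLX3 (-1.08 ± 0.13) and MSX2 (-0.93 ± 0.14) fell with it. Of 34 HOX genes, which pattern the body axis, 15 could be tested. HOXB9 rose, from 21.8 and 25.6 to 76.3 and 107 (log2 difference 1.89 ± 0.30, adjusted p = 0.00241), and 7 fell, among them HOXC4, from 172 and 223 to 35.2 and 37.3 (log2 difference -2.40 ± 0.24, adjusted p = 3.97e-04), and HOXC10 (-0.73 ± 0.11). The number of HOX genes that fell ran from 3 to 8 over the alternative settings and moved by over 1.5 times when any 1 of the 4 libraries was left out.

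Transcripts of the ligase that MS177 is built to use were present in all 4 libraries. CRBN, which encodes cereblon, stood at 949 and 827 with DMSO and 1126 and 1169 with MS177 (log2 difference 0.37 ± 0.12, adjusted p = 0.0406, a call lost in 6 of 14 alternative settings). DDB1, the adaptor of the ligase, had 7996 and 7322 with DMSO and 6649.5 and 7297 with MS177, a difference that did not pass the test (adjusted p = 0.338). RBX1, its RING subunit, fell (-0.97 ± 0.19), and COPS5, the catalytic subunit of the COP9 signalosome that removes NEDD8 from cullins, rose (0.91 ± 0.15). The cullin genes CUL4B (-0.55, a call lost in 1 of 14 alternative settings) and CUL4A (-0.36, a call lost in 6 of 14) fell too. Of the 10 tested genes of the cereblon ligase list 2 rose and 3 fell. Of 32 proteasome subunits 12 rose and 3 fell, all under 4-fold, next to 27.6% and 26.9% of all tested genes. PSMC6, an ATPase of the regulatory particle, rose most, from 1820.0 and 1521 to 3117 and 3728 (log2 difference 1.03 ± 0.14, adjusted p = 0.00136). The number of proteasome subunits that rose ran from 2 to 18 over the alternative settings, and the number that fell from 0 to 4.

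The clearest block of falling genes was that of cell division. FOXM1, the transcription factor of late cell cycle genes, stood at 1326 and 1593 with DMSO and 231 and 234 with MS177 (log2 difference -2.64 ± 0.14, adjusted p = 5.07e-05), and MYBL2, its partner on those promoters, fell from 5900.0 and 5406 to 794 and 792 (log2 difference -2.83 ± 0.11, adjusted p = 2.55e-05). The MuvB subunits did not fall together: LIN54, which binds DNA, fell (-1.39 ± 0.24), LIN9 (284 and 275 with DMSO and 166 and 230.1 with MS177, adjusted p = 0.0697) did not pass the test, and LIN37 rose (1.32 ± 0.21). In the E2F family, the activators E2F1, from 1375 and 1299 to 169 and 166 (-2.99 ± 0.13), and E2F2, from 562 and 630.0 to 26.4 and 21.5 (-4.59 ± 0.21), fell, as did the atypical repressors E2F7 (-2.80 ± 0.28) and E2F8 (-3.45 ± 0.26). E2F3 (adjusted p = 0.686), E2F4 (979.7 and 1089 with DMSO and 1009.7 and 1006 with MS177) and RB1 (1047 and 1087 with DMSO and 985 and 848 with MS177) did not pass the test, and E2F5, a repressor, rose from 335 and 378 to 1179 and 1067 (log2 difference 1.65 ± 0.13, adjusted p = 2.06e-04).

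All 27 tested kinesins and spindle proteins and all 30 tested centromere and kinetochore proteins fell, with medians of -2.94 and -2.81. No alternative setting changed either count. KIF18B, a motor that shortens microtubules, dropped from 446 and 733 to 18.8 and 24.7 (log2 difference -4.66 ± 0.30, adjusted p = 8.68e-05). KIF20A, needed for cytokinesis, had 1202 and 1224 with DMSO and 82.7 and 69.8 with MS177 (-3.98 ± 0.16), and KIF11, the motor that separates spindle poles, 3290.3 and 3438 with DMSO and 377 and 382 with MS177 (-3.15 ± 0.11). At the kinetochore the NDC80 complex, which grips microtubules, lost transcripts of all 4 subunits: SPC24 (-5.09 ± 0.69), SPC25 (-4.18 ± 0.26), NDC80 (-2.83 ± 0.19) and NUF2 (-2.66 ± 0.22). SPC24 was the furthest apart, with 408 and 331 with DMSO and 3.87 and 23.1 with MS177. CENPA, the histone variant that marks centromeres, fell from 342 and 314 to 74.1 and 68.6 (log2 difference -2.19 ± 0.18, adjusted p = 2.15e-04).

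Mitotic kinases and phosphatases fell in 17 of 18 cases, with a median of -2.65. CDK1, the kinase that drives entry into mitosis, stood at 4903 and 3819.8 with DMSO and 445 and 478 with MS177 (log2 difference -3.23 ± 0.15, adjusted p = 3.18e-05). PLK1 had 2909.6 and 2707 with DMSO and 376 and 330.3 with MS177 (-2.99 ± 0.12), AURKA 1802 and 1885 with DMSO and 332 and 316 with MS177 (-2.50 ± 0.12) and AURKB 994 and 805 with DMSO and 34.9 and 68.7 with MS177 (-4.16 ± 0.32). In each of these kinases the lower DMSO library exceeded the higher MS177 library more than 5-fold. CDC25B, a phosphatase that activates CDK1, did not pass the test (1339 and 1375 with DMSO and 1254 and 1140.0 with MS177). BORA, the activator of Aurora A, read 121 and 123 with DMSO and 20.5 and 0 with MS177 (-4.73 ± 1.27, a call lost in 4 of 14 alternative settings). Among cyclins and regulators of anaphase, 14 of 15 fell. CCNA2, cyclin A2, stood at 1856 and 1817 with DMSO and 129.7 and 154 with MS177 (log2 difference -3.69 ± 0.14, adjusted p = 2.55e-05). CCNB1 (-2.22 ± 0.12), CCNB2 (-2.40 ± 0.15), CDC20 (-1.84 ± 0.12) and UBE2C (-2.99 ± 0.14) fell too. ESPL1, the separase that cuts cohesin, had 1562 and 1652 with DMSO and 109 and 98.9 with MS177 (-3.94 ± 0.14).

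The proteins that fold chromosomes fell in 16 of 18 cases. NCAPG and NCAPH, of condensin, had differences of -3.91 ± 0.15 and -3.25 ± 0.18. TOP2A, the topoisomerase that untangles sister chromatids, fell from 6736 and 6781 to 791 and 1057 (log2 difference -2.89 ± 0.15, adjusted p = 4.82e-05). MKI67, the proliferation marker Ki-67, read 952 and 1857 with DMSO and 68.4 and 208 with MS177 (log2 difference -3.47 ± 0.53, adjusted p = 0.00215): its replicates were far apart in both groups, and the groups did not overlap. WAPL, which releases cohesin from chromatin, was the list's only gene that rose, from 2040.2 and 2133 to 3292 and 3289 (0.66 ± 0.10).

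DNA replication showed the same picture. Of 23 genes for origin licensing and the replicative helicase 20 fell, with a median of -2.58, and of 29 for DNA polymerases and the fork 27 fell, with a median of -2.32. MCM10, needed to start the helicase, had 1111 and 1462 with DMSO and 56.1 and 42.1 with MS177 (log2 difference -4.68 ± 0.22, adjusted p = 3.35e-05). MCM2, a helicase subunit, went from 4415 and 4177 to 429.6 and 351 (-3.46 ± 0.13), GINS2 from 3384 and 2835 to 230.1 and 261 (-3.65 ± 0.14), and ORC1, of the origin recognition complex, from 209 and 222 to 18.7 and 12.2 (-3.75 ± 0.29). POLD1, the catalytic subunit of polymerase delta, fell from 429 and 472 to 32.5 and 29.6 (-3.82 ± 0.20), and CLSPN, the checkpoint mediator claspin, from 367 and 416 to 16.4 and 36.3 (-3.94 ± 0.37).

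Nucleotide supply fell in 15 of 20 cases, and its members showed a wide range. RRM2, the S-phase subunit of ribonucleotide reductase, stood at 5699 and 5735 with DMSO and 211 and 244 with MS177 (log2 difference -4.65 ± 0.12, adjusted p = 1.62e-05), a level 25.1-fold lower. RRM2B, the alternative subunit used outside S phase, rose from 1234 and 1293 to 4806 and 4579.9 (log2 difference 1.89 ± 0.10, adjusted p = 5.13e-05). TK1 (-3.65 ± 0.16) and RRM1 (-3.16 ± 0.11) fell, as did TYMS (-2.20 ± 0.15), and UMPS (1002 and 986 with DMSO and 1117 and 956 with MS177) did not pass the test. SAMHD1, which breaks down deoxynucleotides, read 181 and 131 with DMSO and was listed at 0 in both MS177 libraries. Homologous recombination and Fanconi genes, which mend broken and crosslinked DNA, fell in 27 of 30 cases, with a median of -2.50. BRCA1 had 804 and 716 with DMSO and 97.4 and 52.8 with MS177 (log2 difference -3.38 ± 0.29, adjusted p = 2.45e-04) and FANCI 1429 and 1686 with DMSO and 122 and 105 with MS177 (-3.77 ± 0.16). BRCA2 fell from 148 and 215 to 68.3 and 37 (-1.80 ± 0.35), and PALB2, the protein that links BRCA1 and BRCA2, rose (0.51 ± 0.15, a call lost in 4 of 14 alternative settings).

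Late cell cycle promoters are known to carry a cell cycle homology region, bound by the MuvB complex, and S-phase promoters an E2F site. Both were searched in RefSeq promoters (GRCh38.p14, 250 bases before to 50 after the start site) on either strand. The stretches printed here lie upstream of the start site of genes that fell, and the capitals mark the motif: TTTGAA or TTCGAA for the homology region in ESPL1 (chr12:53268239-53268298, plus strand), ZWINT (chr10:56361276-56361335, minus strand), CKAP2L (chr2:112764678-112764737, minus strand) and KIF4A (chrX:70290030-70290089, plus strand), and TTTCCCGC, TTTCGCGC or TTTGGCGC for the E2F site in PCNA (chr20:5126648-5126707, minus strand), MCM3 (chr6:52284883-52284942, minus strand), MCM6 (chr2:135876496-135876555, minus strand) and POLA1 (chrX:24693755-24693814, plus strand), each motif in either orientation. In MCM6 matches overlap.
ESPL1: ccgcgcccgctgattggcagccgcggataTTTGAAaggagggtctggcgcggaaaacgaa
ZWINT: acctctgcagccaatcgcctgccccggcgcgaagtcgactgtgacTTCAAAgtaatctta
CKAP2L: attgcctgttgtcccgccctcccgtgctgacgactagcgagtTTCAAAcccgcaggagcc
KIF4A: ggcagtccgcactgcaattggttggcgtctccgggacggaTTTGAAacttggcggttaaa
PCNA: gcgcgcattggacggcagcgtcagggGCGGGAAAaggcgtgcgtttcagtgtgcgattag
MCM3: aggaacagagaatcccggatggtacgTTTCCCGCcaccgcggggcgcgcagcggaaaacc
MCM6: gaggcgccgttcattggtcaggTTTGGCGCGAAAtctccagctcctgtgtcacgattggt
POLA1: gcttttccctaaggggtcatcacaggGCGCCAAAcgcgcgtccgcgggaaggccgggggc

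Of the promoters of all tested protein-coding genes 11% held the homology region (1127 of 10260). It was found in 19 of 24 promoters of kinesin and spindle genes (79.2%), 17 of 24 of centromere and kinetochore genes (70.8%) and 8 of 14 of cyclin and anaphase genes (57.1%). The CCAAT box (CCAAT), read on either strand, was in 37.0% of all promoters and in 11 of 14 of the cyclin and anaphase genes (78.6%). An E2F site was in 4.62% of all promoters (474 of 10260), in 11 of 20 of the licensing and helicase genes (55.0%), in 8 of 25 of the polymerase and fork genes (32.0%) and in 2 of 17 of the nucleotide supply genes (11.8%). These are matches of letters in a fixed window and do not show that a factor was bound. In the genes shown, ZWINT, the kinetochore gene of the second line, had 4385 and 4001 with DMSO and 309 and 349 with MS177 (log2 difference -3.67 ± 0.12, adjusted p = 2.22e-05). KIF4A, a motor that compacts chromosomes, had 1013 and 1080.1 with DMSO and 89 and 101 with MS177 (log2 difference -3.45 ± 0.15, adjusted p = 2.98e-05), and POLA1, of the priming polymerase, 371 and 433 with DMSO and 120.5 and 93.6 with MS177 (log2 difference -1.91 ± 0.20, adjusted p = 4.91e-04).

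**Figure D2:**
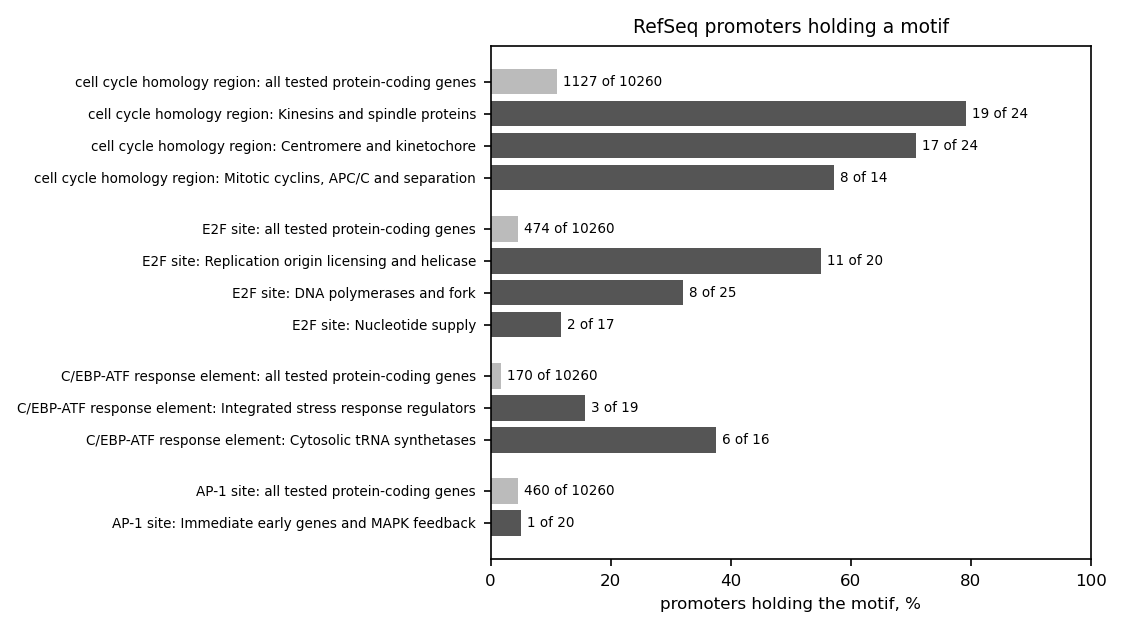
Bars give the percent of promoters that hold a motif (x), in grey for all tested protein-coding genes and in black for a gene list; the numbers are promoters with the motif of promoters matched. The homology region is in 79.2% of kinesin and spindle promoters against 11% of all, while the AP-1 site is in 5.0% of immediate early promoters against 4.48% of all.

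Of 14 G1 cyclins, kinases and CDK inhibitors 3 rose and 8 fell. CCNE2, cyclin E2, fell from 812 and 918 to 75.3 and 55 (log2 difference -3.72 ± 0.20, adjusted p = 5.31e-05), CDK2 from 1164 and 907 to 182 and 235 (-2.31 ± 0.19) and CDK4 from 3464 and 3373 to 2053 and 1907 (-0.79 ± 0.10). CCND1, cyclin D1, had 3353 and 3866 with DMSO and 2609 and 2349 with MS177 (log2 difference -0.54 ± 0.12, adjusted p = 0.00964, a call lost in 1 of 14 alternative settings). The CDK inhibitor CDKN1A, p21, rose from 1431 and 1338 to 10831 and 11254 (log2 difference 2.99 ± 0.10, adjusted p = 2.22e-05), 7.97-fold, and CDKN2B, p15, from 140.3 and 192 to 816 and 714 (log2 difference 2.21 ± 0.19, adjusted p = 2.60e-04). CDKN1B, p27, stood at 549 and 544 with DMSO and 675 and 688 with MS177 and did not pass the test (adjusted p = 0.0623). The inhibitors CDKN2C (-3.43 ± 0.27) and CDKN2D (-1.45 ± 0.21) fell, so the inhibitors as a family had no common direction. GADD45A, a growth arrest gene, rose from 129.5 and 95.9 to 1053 and 1239.6 (log2 difference 3.35 ± 0.19, adjusted p = 6.09e-05), and SESN2, an inhibitor of mTORC1, from 468 and 464 to 3165 and 2867 (log2 difference 2.69 ± 0.11, adjusted p = 2.65e-05).

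The integrated stress response is the programme in which kinases slow translation and the factor ATF4 switches on genes for amino acid supply and, if stress persists, for cell death. Of 21 regulators and targets 15 rose and 4 fell, with a median of 1.45. ATF4 went from 3663 and 3289 to 10196 and 10946 (log2 difference 1.61 ± 0.11, adjusted p = 1.19e-04). DDIT3, which encodes CHOP (chr12:57516588-57521737, minus strand), rose from 320.4 and 305 to 8002 and 9014 (log2 difference 4.76 ± 0.11, adjusted p = 1.62e-05), 27.2-fold. ATF3 rose from 210.1 and 242 to 5539 and 5203 (log2 difference 4.57 ± 0.12, adjusted p = 1.62e-05), and PPP1R15A, GADD34, which restores translation, from 199 and 175 to 3142 and 3004 (log2 difference 4.04 ± 0.13, adjusted p = 2.13e-05). In all 3 the lower MS177 library was more than 10-fold above the higher DMSO library. TRIB3, a pseudokinase that damps ATF4, had 1024 and 847 with DMSO and 7755 and 7473 with MS177 (3.03 ± 0.12), and CHAC1, which degrades glutathione, 83.5 and 63.2 with DMSO and 628 and 527 with MS177 (2.97 ± 0.21). Not every member followed: ATF5 fell (-0.68 ± 0.12), STC2, a secreted glycoprotein that is also an estrogen target, fell from 8394 and 9163 to 2146 and 1970.4 (log2 difference -2.09 ± 0.11, adjusted p = 4.60e-05), and the kinase genes EIF2AK1 (-0.90 ± 0.10) and EIF2AK4 (-0.68 ± 0.17, a call lost in 3 of 14 alternative settings) fell.

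Amino acid synthesis and transport rose in 18 of 23 cases, with a median of 1.00. ASNS, asparagine synthetase, went from 535 and 419.7 to 3341 and 3602 (log2 difference 2.87 ± 0.15, adjusted p = 4.44e-05). SLC7A11, the cystine carrier, had 330.2 and 369 with DMSO and 1931 and 1916 with MS177 (2.46 ± 0.12). SLC7A5 and SLC3A2, the chains of a carrier for large neutral amino acids, stood at 15278 and 16802 with DMSO and 74483 and 66123 with MS177 (2.13 ± 0.12) and at 6407 and 5619 with DMSO and 29084 and 30806 with MS177 (2.32 ± 0.12). The serine pathway was uneven: PSPH (1.00 ± 0.14) and SHMT2 (0.99 ± 0.10) rose, while PHGDH (1054 and 842 with DMSO and 1395 and 992 with MS177) and PSAT1 (69.2 and 45.4 with DMSO and 52 and 39.7 with MS177) did not pass the test. Cytosolic tRNA synthetases, which charge tRNA with amino acids, rose in 16 of 20 cases, with a median of 0.91. WARS, the tryptophan enzyme, stood furthest out at 1813 and 2153 with DMSO and 23934 and 20873 with MS177 (log2 difference 3.50 ± 0.13, adjusted p = 2.55e-05), TARS had 2971 and 3091 with DMSO and 15582 and 16916 with MS177 (2.42 ± 0.11) and GARS 2892 and 2717 with DMSO and 10316 and 9817 with MS177 (1.84 ± 0.10). QARS (-0.80 ± 0.11) and HARS (-0.52 ± 0.12, a call lost in 2 of 14 alternative settings), the glutamine and histidine enzymes, fell.

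ATF4 and its C/EBP partners bind a composite element, searched here as TGATGNAA on either strand. It is shown in capitals for ATF3 (chr1:212565190-212565249, plus strand) and for PPP1R15B (chr1:204412008-204412067, minus strand), a phosphatase subunit like GADD34, whose log2 difference was 1.57.
ATF3: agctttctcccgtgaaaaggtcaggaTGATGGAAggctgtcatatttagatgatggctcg
PPP1R15B: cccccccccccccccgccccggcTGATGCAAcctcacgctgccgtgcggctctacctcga

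This element was in 1.66% of all promoters (170 of 10260), in 6 of 16 promoters of tRNA synthetases (37.5%) and in 3 of 19 of the stress response list (15.8%). A promoter without these letters in its 300 bases may hold the element elsewhere.

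Of 29 endoplasmic reticulum chaperones and factors of the unfolded protein response 20 rose and 2 fell. HSPA5, BiP, the main chaperone of the compartment, stood at 14926 and 12758 with DMSO and 110467 and 113604 with MS177 (log2 difference 3.02 ± 0.12, adjusted p = 2.65e-05), among the 5 largest gains in counts of any gene. HERPUD1, of the degradation channel, had 611 and 582 with DMSO and 4819 and 4785 with MS177 (3.01 ± 0.10), and DNAJB9, a BiP cochaperone, 166 and 170.0 with DMSO and 1315 and 1322 with MS177 (2.96 ± 0.13). The sensors ERN1 (IRE1), from 210.4 and 233 to 1121 and 1069, and ATF6, from 979.7 and 1075 to 4489 and 4111, rose by 2.30 ± 0.13 and 2.06 ± 0.11. XBP1 had 16169 and 13029 with DMSO and 21548 and 23109 with MS177 (log2 difference 0.62 ± 0.14, adjusted p = 0.0091, a call lost in 1 of 14 alternative settings). CALR, the lectin chaperone calreticulin, fell from 16279.6 and 15703 to 10054 and 10043 (log2 difference -0.67 ± 0.10, adjusted p = 0.00204), against the direction of HSPA5. The count of members that rose was 13 without MS177 replicate 2.

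Of 23 cytosolic heat shock proteins 10 fell, 5 rose and 8 did not pass the test, next to 26.9% lower and 27.6% higher among all tested genes. HSP90AA1, inducible HSP90, fell from 67762 and 57438 to 31595 and 39885 (log2 difference -0.81 ± 0.16, adjusted p = 0.00531, a call lost in 1 of 14 alternative settings). HSPA1A (-0.74 ± 0.11), its near-identical copy HSPA1B (-0.60 ± 0.11, a call lost in 1 of 14 alternative settings), FKBP4 (-1.04 ± 0.10) and STIP1 (-0.81 ± 0.13) fell too, and reads of HSPA1A and HSPA1B may be split between them. HSPA4 (0.97 ± 0.11), the small heat shock protein HSPB8 (1.96 ± 0.11) and HSF1, the heat shock factor, (0.49 ± 0.10, a call lost in 1 of 14 alternative settings) rose.

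Of 21 targets of NRF2, the factor of the oxidative stress response, 14 rose and 4 fell, the second count ranging from 2 to 4 over the alternative settings. HMOX1, heme oxygenase, went from 123 and 96.7 to 759 and 781 (log2 difference 2.81 ± 0.17, adjusted p = 7.72e-05), and OSGIN1 from 414 and 400.0 to 1587 and 1543 (log2 difference 1.94 ± 0.12, adjusted p = 6.88e-05). FTH1, the heavy chain of ferritin, which stores iron, rose from 17731 and 14525 to 67609.8 and 66515 (log2 difference 2.06 ± 0.13, adjusted p = 8.88e-05), while the NADPH-producing enzyme PGD fell from 3809 and 3672 to 2144 and 2099 (log2 difference -0.82 ± 0.10, adjusted p = 8.72e-04). The NRF2 gene NFE2L2 itself rose (0.94 ± 0.10). AHR, the dioxin receptor, rose from 856 and 1438 to 7514 and 5596 (log2 difference 2.55 ± 0.26, adjusted p = 4.46e-04) together with its targets CYP1A1, from 46.1 and 61.2 to 1196 and 1245 (log2 difference 4.50 ± 0.19, adjusted p = 2.65e-05), and TIPARP, from 607 and 637 to 5366 and 4968 (log2 difference 3.05 ± 0.11, adjusted p = 2.22e-05). Another AHR target, CYP1B1, stood at 5929.9 and 6253 with DMSO and 6070.1 and 5578 with MS177 and did not pass the test (95% interval of the difference -0.32 to 0.19), so the targets did not move as a block. Metallothioneins, which bind zinc and copper, rose in all 4 tested genes. MT2A had 918 and 573 with DMSO and 5954 and 6909 with MS177 (log2 difference 3.14 ± 0.22, adjusted p = 1.25e-04), MT1X 87.2 and 48.7 with DMSO and 2346 and 2622 with MS177 (5.23 ± 0.27) and MT1F 10.8 and 10.4 with DMSO and 892 and 882 with MS177 (6.26 ± 0.20). MT1M read 0.933 and 0 with DMSO and 387 and 485 with MS177, where the size of the difference depends on the pseudocount. The zinc exporter SLC30A1, a target of the same metal sensor, rose from 969 and 866 to 5634 and 5175 (log2 difference 2.56 ± 0.11, adjusted p = 3.03e-05), and the sensor MTF1 itself did not pass the test (359 and 789 with DMSO and 655 and 578 with MS177).

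**Figure D3:**
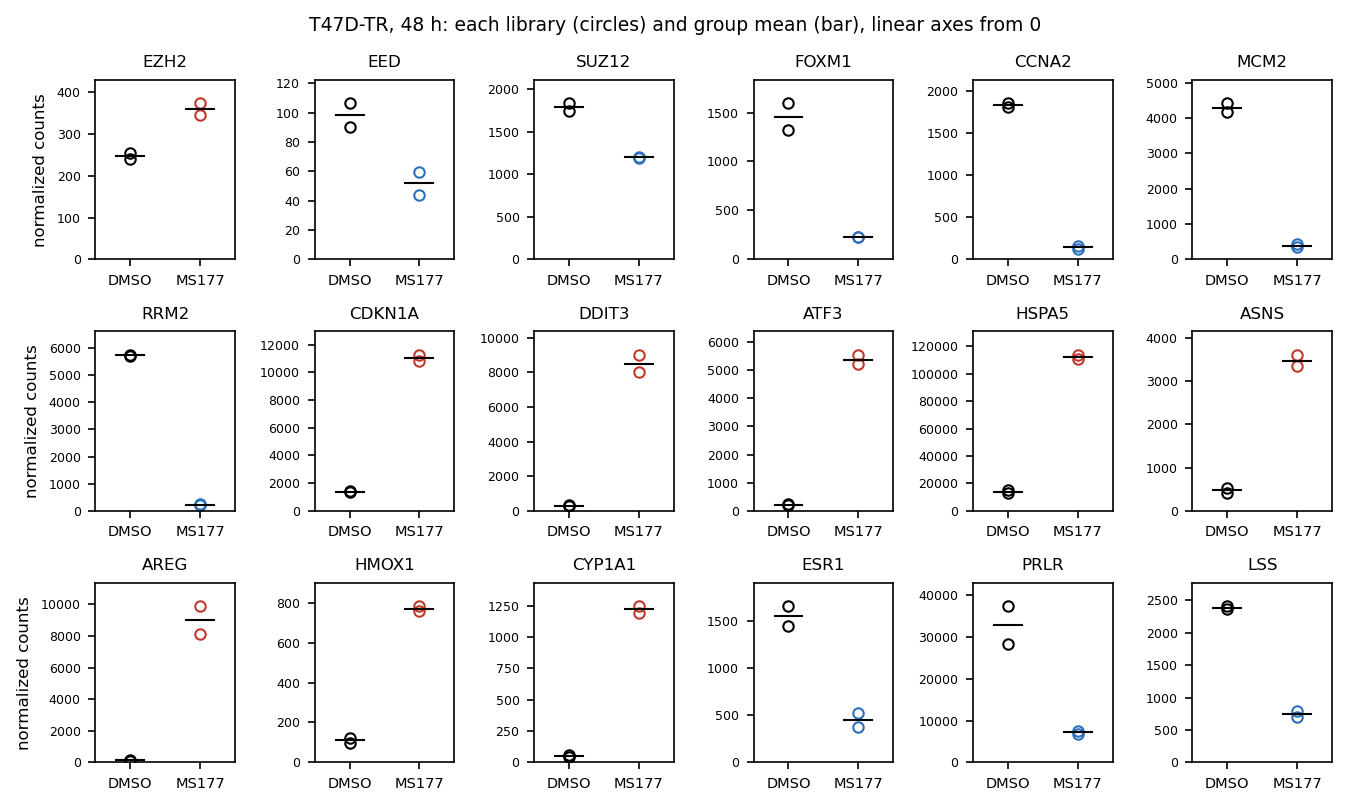
Each panel is a gene with its normalized counts (y, linear from 0) in the 2 DMSO and 2 MS177 libraries (circles) and the group mean (bar); red marks genes that rose and blue genes that fell. In each panel the groups do not overlap; EZH2 has 239 and 255 with DMSO and 373 and 345 with MS177.

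Of 13 ligands and receptors of the EGF family 8 rose and 4 fell. Ligands of the EGF receptor were led by AREG, amphiregulin, from 148 and 121 to 8097 and 9876 (log2 difference 6.06 ± 0.16, adjusted p = 1.62e-05), EPGN, from 12.9 and 9.51 to 307 and 303 (log2 difference 4.66 ± 0.26, adjusted p = 6.02e-05), and HBEGF, from 43.3 and 42.2 to 966 and 1005 (log2 difference 4.49 ± 0.16, adjusted p = 2.28e-05). TGFA (1.80 ± 0.15) and BTC (2.10 ± 0.38) rose too, EREG read 0.908 and 0 with DMSO and 17.7 and 31.3 with MS177, and EGF (268 and 323 with DMSO and 118 and 260.3 with MS177) did not pass the test. The receptors moved apart. EGFR rose from 80.0 and 84 to 227 and 309 (log2 difference 1.68 ± 0.22, adjusted p = 0.00109), while ERBB2 fell from 2582 and 2752 to 1135 and 1097 (log2 difference -1.26 ± 0.11, adjusted p = 2.26e-04), ERBB3 from 4259 and 4695 to 1862 and 1691 (log2 difference -1.33 ± 0.11, adjusted p = 2.30e-04) and ERBB4 from 244 and 389 to 69.4 and 62.1 (log2 difference -2.21 ± 0.26, adjusted p = 7.87e-04). Of 24 immediate early and MAPK feedback genes 21 rose, with a median of 2.11. JUN had 656 and 731 with DMSO and 3036 and 2704 with MS177 (2.05 ± 0.12), KLF6 539.6 and 484 with DMSO and 4334 and 4932 with MS177 (3.18 ± 0.12), and the phosphatases that switch MAP kinases off, DUSP1 and DUSP6, 91.1 and 87.5 with DMSO and 978 and 972 with MS177 (3.43 ± 0.14) and 75.6 and 124 with DMSO and 885 and 783 with MS177 (3.09 ± 0.25).

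Of 14 tested genes of the NF-kB, cytokine and chemokine list 11 rose, a count that ran from 6 to 11 over the alternative settings. LIF, a cytokine of the IL-6 family, read 1.82 and 4.13 with DMSO and 122 and 104 with MS177 (log2 difference 4.90 ± 0.43, adjusted p = 2.65e-04), IL11 4.36 and 1.78 with DMSO and 110.0 and 125 with MS177 (4.94 ± 0.44) and TNF 1.82 and 4.95 with DMSO and 58.7 and 45.7 with MS177 (3.69 ± 0.51). IL6 read 1.17 and 0 with DMSO and 34.2 and 29 with MS177, levels close to the filter. CSF1, the macrophage growth factor, had 46.4 and 40.2 with DMSO and 450.0 and 381 with MS177 (3.23 ± 0.20). RELB (2.39 ± 0.20) and NFKB2 (1.22 ± 0.23), of the noncanonical pathway, rose. The canonical subunit NFKB1 (519 and 551 with DMSO and 441 and 359 with MS177) and the feedback inhibitor NFKBIA (878 and 798 with DMSO and 850.3 and 1005 with MS177) did not pass the test, and SOD2, a mitochondrial target, fell (-1.32 ± 0.13). In the TGF-beta superfamily 8 of 17 tested genes rose and 3 fell, next to 27.6% and 26.9% of all tested genes. The number that rose ran from 3 to 9 over the alternative settings and moved without DMSO replicate 1, MS177 replicate 1 or MS177 replicate 2. INHBE, an activin subunit, had 6.63 and 7.53 with DMSO and 2558 and 2465 with MS177 (log2 difference 8.28 ± 0.19, adjusted p = 1.62e-05), GDF15, a stress hormone, 157 and 153 with DMSO and 5278 and 5322 with MS177 (5.08 ± 0.11), FSTL3, an activin antagonist, 144 and 138 with DMSO and 2426 and 2727 with MS177 (4.18 ± 0.13) and TGFB2 24 and 16.3 with DMSO and 187 and 225 with MS177 (3.31 ± 0.29). INHBA (12.6 and 9.94 with DMSO and 13.9 and 9.63 with MS177) and INHBB (1393 and 1613 with DMSO and 1541 and 1416 with MS177), the other activin subunits, did not pass the test.

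Of 14 genes of the insulin-like growth factor axis 6 fell and 3 rose, and the number that rose ran from 1 to 3 over the alternative settings and moved without MS177 replicate 1. IGFBP5, a binding protein, dropped from 38388 and 47194 to 1683 and 1539.9 (log2 difference -4.72 ± 0.13, adjusted p = 1.75e-05), among the 5 largest losses of normalized counts, and IGFBP4 fell from 5060.2 and 4049 to 1738 and 1914 (log2 difference -1.31 ± 0.14, adjusted p = 5.11e-04). PIK3R1, the regulatory subunit of PI3 kinase, fell from 4275 and 4107 to 742 and 830.1 (log2 difference -2.42 ± 0.11, adjusted p = 3.32e-05), and INSR, the insulin receptor, from 279 and 236 to 61.3 and 97.4 (log2 difference -1.72 ± 0.26, adjusted p = 0.00216). IGFBP2 rose (0.73 ± 0.14), and IRS1 (471 and 580.4 with DMSO and 551 and 462 with MS177) did not pass the test.

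T47D cells are luminal, that is, they resemble the hormone-responsive cells of the breast duct, and the libraries matched this: KRT8, at 129842 and 109733 with DMSO and 114288 and 116464 with MS177, KRT18, KRT19, GATA3 and FOXA1 were abundant, while KRT5, KRT14, ZEB1, PTPRC, COL1A2 and PDGFRB were not listed. Of 14 luminal markers 8 fell and 3 rose, the second count running from 0 to 3 over the alternative settings and moving without either MS177 library. ESR1, the estrogen receptor, had 1442 and 1655 with DMSO and 527 and 381 with MS177 (log2 difference -1.78 ± 0.18, adjusted p = 4.45e-04), PGR, the progesterone receptor, 292 and 272 with DMSO and 62 and 20.9 with MS177 (-2.93 ± 0.47), and GATA3 12631 and 14266 with DMSO and 7323 and 6947 with MS177 (-0.91 ± 0.11). PRLR, the prolactin receptor, fell from 28292 and 37362 to 7602 and 6788 (log2 difference -2.18 ± 0.16, adjusted p = 1.38e-04). Of 27 estrogen receptor targets 17 fell and 3 rose (6 at most over the alternative settings), with a median of -0.85. PDZK1 (-2.16 ± 0.19), MYB (-2.13 ± 0.24) and GREB1 (-1.32 ± 0.26) fell, AGR2 (8749 and 8295 with DMSO and 7609 and 7495 with MS177) did not pass the test, and NRIP1, a corepressor, rose (1.52 ± 0.12). NR3C1, the glucocorticoid receptor, rose from 225 and 291 to 651 and 687 (log2 difference 1.38 ± 0.17, adjusted p = 8.58e-04).

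Markers of other cell types were low. The 8 tested basal and mesenchymal markers summed to 2804 and 2717 with DMSO and 3702 and 3472 with MS177, most of it CDH3, and 4 of them rose, a count that ran from 1 to 4 over the alternative settings. CD44 had 178 and 170.1 with DMSO and 647 and 506 with MS177 (log2 difference 1.71 ± 0.17, adjusted p = 4.34e-04), KRT17 read 0 and 1.46 with DMSO and 173 and 218 with MS177, and SNAI2 0 and 3.31 with DMSO and 88.6 and 84.3 with MS177. VIM, TP63 and CDH2 stayed under 20 normalized counts in every library. The 3 tested fibroblast markers summed to 232 and 255 with DMSO and 840.3 and 766 with MS177, with COL1A1 (1.34 ± 0.17) and ACTA2 (2.09 ± 0.18) as the main part, and the 3 tested blood markers to 25.8 and 25.2 with DMSO and 67.4 and 55.1 with MS177, where CD68, a lysosomal protein of macrophages, read 0.764 and 2.07 with DMSO and 44.2 and 40.4 with MS177. The part of other cell types in these levels was not tested, and the defining markers named above were not listed.

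Among all tested genes 27.6% rose and 26.9% fell. Of 12 tested keratins 8 rose and 3 fell, and of 22 adhesion and junction genes 8 rose and 8 fell. The numbers that rose ran from 4 to 8 and from 3 to 8 over the alternative settings, and both moved without either MS177 library. KRT7 rose from 749 and 659.8 to 6767 and 7417 (log2 difference 3.33 ± 0.12, adjusted p = 2.22e-05) and KRT80 from 661 and 691 to 4921 and 4334 (log2 difference 2.77 ± 0.11, adjusted p = 2.65e-05), and the hair keratin KRT86 rose from low levels (4.98 ± 0.43). KRT19 fell from 62681 and 50164 to 31745 and 33855 (log2 difference -0.77 ± 0.14, adjusted p = 0.0043) and KRT23 from 1345 and 1226 to 281 and 330.1 (log2 difference -2.07 ± 0.14, adjusted p = 1.11e-04). KRT8, the most abundant, did not pass the test. GJA1, which encodes the gap junction protein connexin 43 (chr6:121435577-121449727, plus strand), read 338 and 262 with DMSO and was listed at 0 in both MS177 libraries. CLDN1, a tight junction claudin, fell from 58861 and 55329 to 31077 and 30796 (log2 difference -0.88 ± 0.11, adjusted p = 9.26e-04), while CLDN7 rose (0.96 ± 0.12) and CDH1, E-cadherin, did not pass the test (14162 and 15254 with DMSO and 12899.9 and 11260.0 with MS177). Of 21 matrix genes 13 rose and 6 fell. PLAU, the urokinase protease, rose from 8.19 and 9.08 to 138 and 147 (log2 difference 3.90 ± 0.29, adjusted p = 1.46e-04). THBS1, thrombospondin, fell from 9478 and 11185 to 2935 and 2498 (log2 difference -1.93 ± 0.13, adjusted p = 1.23e-04) and FN1, fibronectin, from 287 and 262 to 56.5 and 56.1 (log2 difference -2.26 ± 0.19, adjusted p = 2.28e-04). The number of matrix genes that rose ran from 6 to 13 over the alternative settings.

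Of 29 cholesterol genes 20 fell and 5 rose, and 3 rose without either MS177 library. LSS, which closes the sterol rings, had 2364 and 2406 with DMSO and 798 and 698 with MS177 (log2 difference -1.67 ± 0.12, adjusted p = 1.23e-04). SREBF2, the master regulator, fell from 3071 and 3489 to 1313 and 1203 (log2 difference -1.38 ± 0.12, adjusted p = 2.37e-04). Among the genes that rose, ABCA1, a cholesterol exporter, read 3.99 and 2.18 with DMSO and 73.6 and 68.9 with MS177 (log2 difference 4.18 ± 0.42, adjusted p = 4.32e-04), ABCG1 42.9 and 68.7 with DMSO and 415 and 379 with MS177 (2.84 ± 0.26) and MYLIP, which degrades the LDL receptor, rose (0.80 ± 0.14). SC5D, a synthesis enzyme, rose too (1.09 ± 0.10). In fatty acid synthesis 11 of 20 fell and 3 rose, among them FASN, from 27148 and 29738 to 11349.8 and 8757 (log2 difference -1.51 ± 0.15, adjusted p = 4.13e-04), SCD, the desaturase, from 20891 and 22425 to 9716 and 8399 (log2 difference -1.26 ± 0.12, adjusted p = 3.52e-04), and ACLY (-1.45 ± 0.12).

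Of 27 genes of glycolysis and the hypoxia response 15 fell and 5 rose, the second count being 3 without MS177 replicate 1. GPI, the enzyme of the second step, had 4069.7 and 4004 with DMSO and 1013 and 815 with MS177 (log2 difference -2.15 ± 0.13, adjusted p = 7.81e-05), LDHA 14000.5 and 12321 with DMSO and 4924 and 5119 with MS177 (-1.39 ± 0.11) and PGK1 1853 and 1834 with DMSO and 683 and 398 with MS177 (-1.82 ± 0.24). Other genes of the list rose: VEGFA, the vessel growth factor, from 430.1 and 553 to 2237 and 1873 (log2 difference 2.07 ± 0.16, adjusted p = 1.95e-04), ADM, adrenomedullin, (2.69 ± 0.19) and TXNIP, which blocks glucose uptake, from 1575 and 1579 to 7485 and 7414 (log2 difference 2.24 ± 0.10, adjusted p = 2.92e-05). In polyamine metabolism, SAT1, which marks spermidine and spermine for breakdown, rose from 799.7 and 616 to 11878 and 15683 (log2 difference 4.28 ± 0.18, adjusted p = 2.65e-05), SMOX, spermine oxidase, from 25.2 and 26.2 to 404 and 588 (log2 difference 4.19 ± 0.24, adjusted p = 6.49e-05) and ODC1, which makes putrescine, from 1722 and 1432 to 6781 and 7368 (log2 difference 2.17 ± 0.13, adjusted p = 6.53e-05). AMD1, needed to make spermidine, fell from 1605 and 1611 to 840.2 and 711 (log2 difference -1.06 ± 0.13, adjusted p = 8.34e-04), so enzymes on both sides of the pathway moved.

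Of 13 transcripts encoded in mitochondria 1 fell and 12 did not pass the test. MT-CO1, the most abundant, stood at 47929 and 54165 with DMSO and 52572 and 51603 with MS177 (95% interval of the difference -0.25 to 0.32). The number that fell ran from 0 to 10 over the alternative settings. Of 37 nuclear genes of the respiratory chain 7 rose and 7 fell, below the 27.6% and 26.9% of all tested genes. These counts ran from 1 to 10 and from 4 to 11 over the alternative settings, and moved without DMSO replicate 2, MS177 replicate 1 or MS177 replicate 2. Of 35 lysosome and autophagy genes 20 rose and 6 fell. The first count was 13 without MS177 replicate 2, and the second ran from 2 to 7 and moved without either MS177 library. MAP1LC3B, LC3, rose from 1919 and 1612 to 11716 and 12660.4 (log2 difference 2.79 ± 0.12, adjusted p = 3.03e-05), SQSTM1, the cargo receptor p62, from 4509 and 4238 to 13114 and 13006 (log2 difference 1.58 ± 0.10, adjusted p = 9.30e-05), WIPI1 from 271 and 281 to 1140.5 and 1114 (log2 difference 2.03 ± 0.12, adjusted p = 7.45e-05), and the regulator TFE3 from 682 and 679.5 to 2646 and 2428 (log2 difference 1.89 ± 0.11, adjusted p = 6.45e-05). BECN1 fell (-0.62 ± 0.14, a call lost in 1 of 14 alternative settings), and TFEB (57.6 and 52.8 with DMSO and 88.6 and 67 with MS177) did not pass the test.

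The BCL2 family guards mitochondrial cell death. Of 16 tested members 6 rose and 5 fell, next to 27.6% and 26.9% of all tested genes. Among the members that promote death, HRK rose from 14.1 and 15.6 to 279 and 323 (log2 difference 4.25 ± 0.24, adjusted p = 5.93e-05), PMAIP1, NOXA, from 107 and 96.5 to 649 and 764 (log2 difference 2.78 ± 0.17, adjusted p = 7.05e-05) and BBC3, PUMA, from 73.6 and 68.4 to 399 and 409.8 (log2 difference 2.49 ± 0.17, adjusted p = 1.17e-04), while BOK (-0.91 ± 0.14), BAD (-0.65 ± 0.17, a call lost in 2 of 14 alternative settings) and BCL2L11, BIM, (-0.60 ± 0.18, a call lost in 4 of 14 alternative settings) fell. BAX (log2 difference 1.10, adjusted p = 0.00104) and BIK (log2 difference 2.50, adjusted p = 0.0181), which also promote death, rose too. Neither call was lost in an alternative setting that tested it. Of the protective members MCL1 rose from 3740.2 and 3632 to 5588 and 5664 (0.61 ± 0.10), while BCL2 (-2.10 ± 0.35) and BCL2L1, at 4089 and 4065 with DMSO and 2306 and 2212 with MS177 (-0.85 ± 0.10), fell. TNFRSF10B, the death receptor DR5 and a CHOP target, rose from 744 and 861 to 4432 and 3941 (log2 difference 2.38 ± 0.13, adjusted p = 4.77e-05), and its ligand TNFSF10 fell (-0.80 ± 0.20, a call lost in 2 of 14 alternative settings). Cell death itself was not measured.

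Among 28 interferon-stimulated genes 5 rose and 9 fell, next to 27.6% and 26.9% of all tested genes, with a median of -0.58. The number that rose ran from 2 to 6 over the alternative settings and moved without MS177 replicate 1. OAS3, a sensor of viral RNA, fell from 1221 and 1487 to 205 and 180.1 (log2 difference -2.80 ± 0.16, adjusted p = 5.86e-05) and BST2 from 5525 and 4334 to 2126 and 2247 (log2 difference -1.16 ± 0.14, adjusted p = 8.37e-04), while IRF1 rose from 68.3 and 83.8 to 1106 and 987 (log2 difference 3.77 ± 0.17, adjusted p = 3.18e-05) and ISG20 from 56 and 45.4 to 397 and 514 (log2 difference 3.14 ± 0.22, adjusted p = 1.22e-04). Of 15 genes of class I antigen presentation 3 rose and 3 fell, below the 27.6% and 26.9% of all tested genes. HLA-B and HLA-C rose, HLA-B from 3389 and 2767 to 10253 and 11629 (1.83 ± 0.14) and HLA-C from 1939 and 1762 to 3934 and 3917 (1.09 ± 0.11), and these share sequence, so reads may be split among them. TAPBP, which loads them, fell (-1.23 ± 0.16).

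Histone genes moved in the direction opposite to the replication genes: 15 of 17 tested rose, with a median of 2.38. HIST2H2BE had 337 and 357 with DMSO and 2866 and 2765 with MS177 (log2 difference 3.02 ± 0.11, adjusted p = 2.55e-05), HIST1H4H 155 and 178 with DMSO and 1867 and 1855 with MS177 (3.48 ± 0.13), HIST1H1C 527 and 378 with DMSO and 2898 and 3355 with MS177 (2.80 ± 0.18) and H1F0, which is made outside S phase, 4226 and 4384 with DMSO and 19203 and 18920.3 with MS177 (2.15 ± 0.10). Most histone messages of S phase lack a poly(A) tail, and the libraries were made from polyadenylated RNA, so these counts cover the polyadenylated part only. Many histone genes are near-identical copies between which reads can be split.

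MYC, the growth regulator, stood at 1194 and 1198 with DMSO and 1663 and 1459 with MS177 (log2 difference 0.38 ± 0.12, adjusted p = 0.0311, a call lost in 7 of 14 alternative settings). Its antagonists split: MXD1 rose (1.85 ± 0.17), and MXD3 (-2.42 ± 0.17) and MXD4 (-1.83 ± 0.13) fell. Of 30 ribosome biogenesis genes 14 rose and 4 fell (2 to 4 over the alternative settings), with RRP12 rising from 1779 and 1841 to 4557 and 4484 (1.32 ± 0.10) and FBL, fibrillarin, falling from 2194 and 1655 to 981 and 1111 (-0.87 ± 0.16). Of 55 ribosomal proteins 18 rose and 2 fell, none by 4-fold, next to 27.6% and 26.9% of all tested genes. The number that rose ran from 6 to 32 over the alternative settings, and the number that fell from 1 to 6. EEF1A1, the elongation factor that brings tRNA to the ribosome and was above KRT8 in each DMSO library, fell from 171450.0 and 140390.0 to 37183 and 43532 (log2 difference -1.95 ± 0.15, adjusted p = 1.72e-04).

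**Figure D4:**
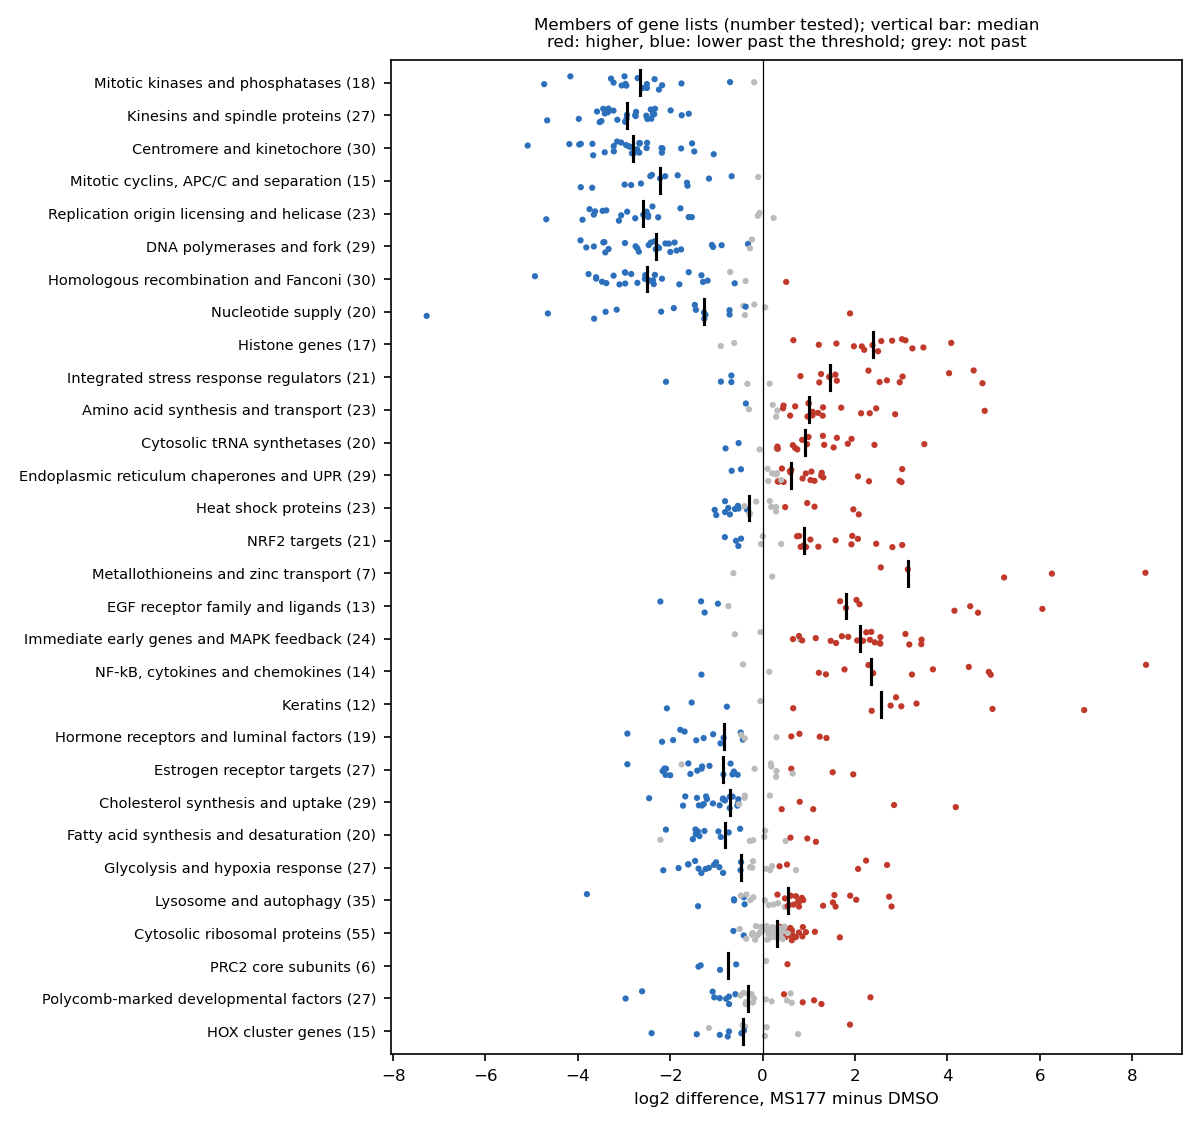
Each row is a gene list with its number of tested members; each dot is a member at its log2 difference, MS177 minus DMSO (x), in red or blue where it rose or fell and grey otherwise, and the black bar is the median. The cell division, replication and repair lists lie left of 0 with medians from -2.94 to -1.27, and the histone, integrated stress response, metallothionein and immediate early lists lie mostly to the right.

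MS177 was also set against the 3 other compounds given at 2.5 uM for 48 h, in a fit of 10 libraries and 15039 genes. MS177 differed from MS177-N1 at 7609 genes (50.6%), from MS177-N2 at 6974 (46.4%) and from C24 at 7221 (48.0%), with 3591, 3286 and 3354 genes higher with MS177 (23.9%, 21.8% and 22.3%) and 4018, 3688 and 3867 lower (26.7%, 24.5% and 25.7%). Against DMSO the same fit called 5 genes for MS177-N1 (0.0332%), 21 for MS177-N2 (0.14%) and 0 for C24. At an unadjusted p under 0.05 these were 4864 genes (32.3%), 709 (4.71%) and 510 (3.39%). In the table that holds MS177-N1 and DMSO alone, 2431 of 14038 genes passed the adjusted threshold, against 16 of 14350 for MS177-N2 and 2 of 14249 for C24. The number for MS177-N1 therefore depended on the fit. All of these comparisons share the DMSO libraries, through which the tables were put on 1 scale.

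All 27 kinesin and spindle genes were lower with MS177 than with each of the 3 compounds, with medians of -2.64 against MS177-N1, -2.85 against MS177-N2 and -2.76 against C24. The median of these 27 genes for the compounds minus DMSO was -0.21, -0.09 and -0.19. All 30 kinetochore genes were lower with MS177 than with each compound, too. CCNA2 had 1684 and 1413 with MS177-N1, 1645 and 1627 with MS177-N2 and 1582 and 1557 with C24, against 129.7 and 154 with MS177. TCF19, a cell cycle factor among the 8 lowest against MS177-N2, had 1403 and 1414, 1314 and 1227 and 1361 and 1375 in the same order, and 55.1 and 54 with MS177. Immediate early genes were higher with MS177 in 20, 19 and 19 of 23 cases, and amino acid genes in 18, 17 and 18 of 23.

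Of 21 integrated stress response genes 14, 15 and 15 were higher with MS177 than with the 3 compounds (MS177-N1 first, then MS177-N2, then C24), and 3, 4 and 3 were lower. Of 29 endoplasmic reticulum chaperones and unfolded protein response factors 20, 16 and 16 were higher and 2, 1 and 2 lower, while of 23 heat shock proteins 5, 5 and 5 were higher and 10, 9 and 9 lower. DDIT3 had 394 and 357 with MS177-N1, 343 and 346 with MS177-N2 and 335 and 421 with C24, next to 320.4 and 305 with DMSO and 8002 and 9014 with MS177. HSPA5 had 16187 and 16765, 16065 and 13539 and 13396 and 16895, next to 110467 and 113604 with MS177, differences of 2.77 ± 0.15, 2.93 ± 0.15 and 2.90 ± 0.15. CYP1A1 had 61 and 55, 44 and 60.2 and 101 and 43.7, ranges that overlapped the 46.1 and 61.2 of DMSO. ANKRD1, a YAP target and one of the highest differences in all 3 comparisons, had 7.90 and 11.9, 12.1 and 10.3 and 11.5 and 9.18 against 887 and 877 with MS177.

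Transcripts of the PRC2 core were also set side by side. EZH2 had 289.6 and 299.9 with MS177-N1, 224 and 245 with MS177-N2 and 244 and 257 with C24. It was higher with MS177 than with MS177-N2 (0.61 ± 0.14, adjusted p = 0.00638) and C24 (0.52 ± 0.14, adjusted p = 0.014), and against MS177-N1 the test was not passed (95% interval of the difference -0.03 to 0.60). SUZ12 was lower with MS177 than with MS177-N2 (-0.39 ± 0.10, adjusted p = 0.0122) and C24 (-0.33 ± 0.10, adjusted p = 0.0237), and missed the threshold against MS177-N1 (95% interval -0.50 to -0.04). CRBN did not pass the test against any of the 3, with intervals of -0.20 to 0.49, -0.12 to 0.57 and -0.03 to 0.66. MYC was higher with MS177 than with MS177-N1 (0.63 ± 0.14, adjusted p = 0.00568) and C24 (0.46 ± 0.14, adjusted p = 0.0265), and the interval against MS177-N2 was -0.06 to 0.59.

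SAMHD1 set MS177-N1 beside MS177. In the table that holds MS177-N1 it was listed at 0 in both MS177-N1 libraries, as in both MS177 libraries, while MS177-N2 had 115 and 174 and C24 178 and 43.6. It was among the 5 genes called between MS177-N1 and DMSO. S100A2, a calcium-binding protein of epithelial cells, had 38.9 and 55.2 with MS177-N1, 25.9 and 14.3 with MS177-N2, 8.98 and 28.7 with C24 and 1253 and 1719 with MS177. CLEC3A, among the lowest genes against MS177-N1, MS177-N2 and C24 by its fitted difference, was unsteady. It read 2927 and 1258 with DMSO and 0 and 314 with MS177, a difference that did not pass the test (adjusted p = 0.195). Its intervals ran from -11.98 to -2.85 against MS177-N1 and from -11.99 to -2.85 against C24. Against MS177-N2 the difference was -6.58. The call against each compound was lost in 3 of 8 alternative settings.

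**Figure D5:**
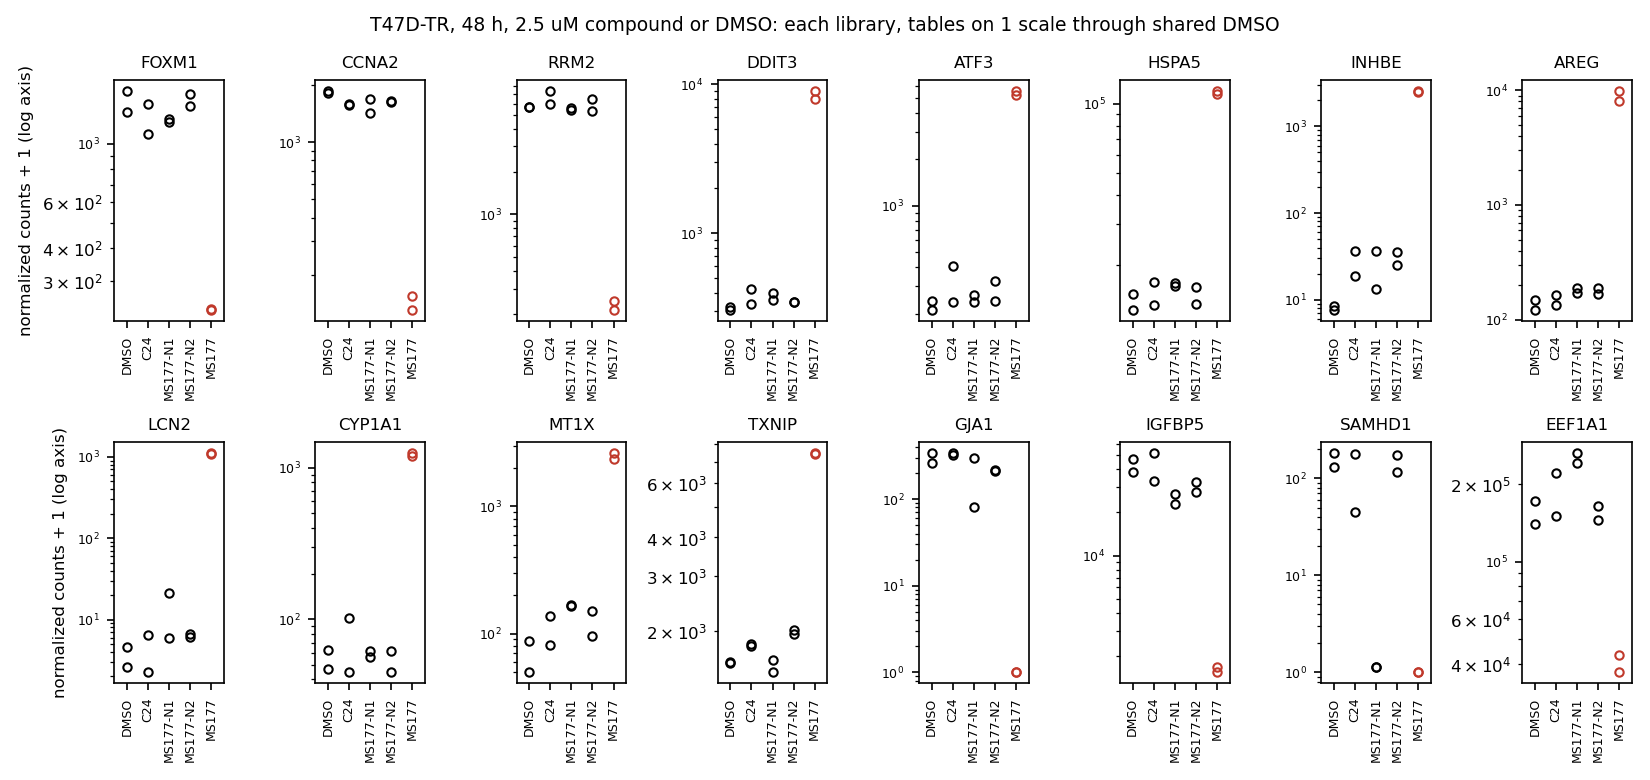
Each panel is a gene with normalized counts + 1 (y, log axis) in the 2 libraries of each treatment of T47D-TR at 48 h, with MS177 in red. DMSO, C24, MS177-N1 and MS177-N2 lie together in most panels and MS177 apart from them; in the SAMHD1 panel the 2 MS177-N1 libraries lie beside the MS177 libraries, just above 0 through the scaling between tables.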

How the data were processed

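The authors deposited 1 table per compound with log2 values for the DMSO and compound libraries of that cell line and time, on which 0 reads has a fixed lowest value. Per the submitters' processing notes, RSEM and DESeq were used with build hg38; versions, aligner settings and counting of strand are not given in the sources used here. The deposited values were read as counts divided by size factors and then variance-stabilized, and the transform was undone to give normalized counts. That is an assumption: whole reads could not be recovered, so depth is unknown and no counting interval is given. A check used the DMSO libraries, which stand in all 4 tables of T47D-TR at 48 h: the median log2 ratio between tables differed by 0.0016 to 0.0032 between count levels. Single genes varied more. For DMSO replicate 1 at 100 to 1000 normalized counts, the 5th and 95th percentiles of this ratio were -0.372 and -0.019 in the MS177-N1 table. In the C24 table they were -0.084 and 0.216. The check therefore covers the medians and not the value of each gene. No column of per-sample values in these tables was left out.

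MS177 was compared with DMSO in limma 3.58.1 (R 4.3.3) on log2(normalized count + 1), with trend and robust switched on in its empirical Bayes step, two-sided, with Benjamini-Hochberg adjustment over the 14555 genes that reached 10 normalized counts in 2 or more of the 4 libraries. Comparisons with MS177-N1, MS177-N2 and C24 were 3 contrasts in 1 fit of 10 libraries, with tables put on 1 scale gene by gene through the shared DMSO libraries, over the 15039 genes that passed. The test was tried on simulated data with known changes. Replicates could not be tested for shared cultures.

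The comparison, the gene lists and the tests were chosen with earlier results of these data known. Lists are described by counts and medians beside all tested genes, with no set test. Some genes and 1 gene list are not reported here. Genes were named by rule: EZH2, EZH1, EED, SUZ12, FOXM1, MYC and CRBN; the 15 largest rises and falls at a mean of at least 100 normalized counts; the 5 largest gains and losses in counts; of each list its leading 5 genes, all members of lists of 20 or fewer and up to 6 members per direction; and the 8 largest differences per direction between compounds. ZWINT, KIF4A, POLA1 and other genes with printed promoters are list members with the largest differences whose stretch of 60 bases touches no GENCODE v29 exon. Gene positions are from GENCODE v29 (GRCh38). RefSeq promoters of GRCh38.p14 were matched by symbol for 10598 tested genes; lists with under 80% matched were left out of the motif shares.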

Additional observations from a re-analysis of the deposited data

How the results depend on the processing

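Over 14 alternative settings the number of genes that differed between MS177 and DMSO ran from 5655 to 8087, against 7945. The number of higher genes ran from 2564 to 3791 when 1 of the 4 libraries was left out, against 4023, where fewer genes passed the filter; the lower genes ran from 3089 to 3335 in those settings and held within 1.5 times of 3922 throughout. The lone library of a group is then assumed to vary as the other group does. On the deposited log2 values 6516 of 10425 genes were called. Scaling to a common median gave 4349 higher and 3650 lower genes and moved the median of all genes to 0.062. Of 579 named genes that passed the test, 460 passed in every alternative that tested them, 28 missed in 1 alternative, and the direction of 0 was reversed. The correlation of replicate differences between DMSO and MS177 was -0.071, so no pairing by replicate number was seen between these groups. Over all pairs of groups it ran from -0.286 (MS177-N2 and C24) to 0.238 (DMSO and MS177-N2). Such correlations cannot show whether libraries shared a batch. The fit of MS177 and DMSO with the replicate number as a block called 7367 genes. With the block, 7250, 6622 and 6914 genes differed from MS177-N1, MS177-N2 and C24. Over the alternatives those comparisons called 5699 to 7900, 4975 to 7626 and 5387 to 7265 genes. Shares of motifs were not used for genes that changed 4-fold or more. Promoters were matched for 79.1% of the protein-coding genes that fell by this much and 74.8% of those that rose, below the 80% set. For changes of 2-fold to 4-fold the matched shares were 80.1% and 81.4%. With 2 libraries a group and unknown depth, low genes are the least certain, and a gene listed at 0 has no fold.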
